A study of Mus musculus with 30 samples.

Results

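The dystrophin glycoprotein complex was followed through 8 genes of EDL muscle, taken from the deposited expression table by their gene symbols: DMD, UTRN, DAG1, SGCA, SGCB, SGCD, SSPN and NOS1. All 8 were among the 21073 genes of the table, and each was measured above 0 in all 30 mice. The extensor digitorum longus (EDL) is a fast hind limb muscle. It was taken from female SJL/J mice, 5 per group, in 6 groups: mice without immunization (Ctrl), mice immunized with ovalbumin in complete Freund's adjuvant (OVA), and mice with experimental autoimmune encephalomyelitis (EAE) induced by the myelin peptide [Ser140]-PLP139-151 in the same adjuvant, each on day 14 and on day 40. Day 14 was the peak of EAE and day 40 the second remission, and pertussis toxin was not given. Different mice were taken on the 2 days, so a change between days is a difference between mice. Poly(A) RNA of each whole muscle was sequenced, and gene expression is given as RPKM, the reads on a gene per kilobase of its exons, scaled to the size of the library. An estimated 18.1M to 31.6M reads per mouse were assigned to genes (median 21.6M). The 60 pairs of mice of 1 group were compared by the squared difference of a gene's reads. Averaged over genes, it was 9.57 to 214 times what sampling of reads alone would give.

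Dystrophin, the product of DMD, is a long rod-shaped protein that ties the actin cytoskeleton under the muscle membrane to dystroglycan, the product of DAG1. Dystroglycan crosses the membrane and holds laminin outside the fibre, the sarcoglycans (SGCA, SGCB, SGCD) and sarcospan (SSPN) stabilize it, and neuronal nitric oxide synthase (NOS1) is anchored to dystrophin through the syntrophins. Utrophin (UTRN) is the paralog of dystrophin, is found mainly at the neuromuscular junction in adult muscle, and can take the place of dystrophin. Loss of DMD or of a sarcoglycan causes muscular dystrophy in mice and humans. A whole-muscle level sums all isoforms of a gene and all cells of the tissue, so the full-length and short products of DMD were not separated, and fewer cells of a type and less RNA per cell cannot be told apart.

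The genes lie on chromosomes X (Dmd, 82814664 to 85205050), 10 (Utrn, 12382187 to 12869888), 9 (Dag1, 108204861 to 108263977), 11 (Sgca, 94962777 to 94976327, and Sgcd, 46971077 to 47989451), 5 (Sgcb, 73632749 to 73647737, and Nos1, 117866839 to 117958840) and 6 (Sspn, 145931873 to 145965225) of GRCm38, the assembly also named mm10. Their transcripts differ widely in length. The exons of DMD cover 14957 bases and those of UTRN 14267, against 10225 for NOS1, 5961 for DAG1, 4996 for SSPN, 3786 for SGCB, 3495 for SGCD and 1724 for SGCA. This length is given because it moved with the results described here. Estimated reads behind a value ran from 140 (NOS1 in 1 Ctrl mouse of day 14) to 12100 (DAG1).

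The sequence before 1 RefSeq start each of DMD, UTRN and SGCA is shown. DMD and UTRN were chosen because DMD rose while its paralog did not pass the test. SGCA was chosen because it had the smallest error of the 8 fold changes on day 14. The starts shown for DMD and UTRN lie inside the gene spans given above, and that of SGCA lies at the edge of its span. The 5′ ends of the spans of DMD and UTRN are not covered. Each sequence holds the 250 bases before a transcription start of RefSeq (build GRCm38.p6), written 5′ to 3′ on the gene's strand, with E-boxes in capitals (CANNTG, a motif that reads alike on both strands and is known as a site of the MyoD family); overlapping matches were counted separately.
DMD, chrX:82948620-82948869, plus strand: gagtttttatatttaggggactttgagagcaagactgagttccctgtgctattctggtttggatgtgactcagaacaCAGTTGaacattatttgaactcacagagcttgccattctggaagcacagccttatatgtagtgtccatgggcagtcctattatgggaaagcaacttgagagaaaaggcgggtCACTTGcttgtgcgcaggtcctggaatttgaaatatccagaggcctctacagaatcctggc
UTRN, chr10:12861736-12861985, minus strand: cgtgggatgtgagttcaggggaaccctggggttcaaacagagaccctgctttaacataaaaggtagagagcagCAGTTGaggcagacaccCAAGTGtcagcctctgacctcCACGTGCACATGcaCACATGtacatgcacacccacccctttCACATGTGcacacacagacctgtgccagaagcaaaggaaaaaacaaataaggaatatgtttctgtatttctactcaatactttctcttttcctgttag
SGCA, chr11:94976328-94976577, minus strand: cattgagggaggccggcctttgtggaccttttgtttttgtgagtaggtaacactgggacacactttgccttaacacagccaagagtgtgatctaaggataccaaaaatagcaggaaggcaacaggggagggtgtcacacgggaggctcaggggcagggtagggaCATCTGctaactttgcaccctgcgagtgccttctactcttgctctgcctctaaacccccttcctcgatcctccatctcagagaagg
The start of DMD shown had 2 E-boxes before it, that of UTRN 7 and that of SGCA 1, and 66.2% of the 32851 promoters of the RefSeq table held at least 1. DMD had a second start in the table, with 0 E-boxes, and DAG1, in which both starts held 1, and SSPN had 2 starts each. The N-box TTCCGG (either strand), present in 12.0% of all promoters, was matched in 0 of the 11 starts of the 8 genes, which says only that these letters are not in these windows. For UTRN the window lies inside the gene, so a match at the 5′ end of its span was not looked for. A match is a description of the sequence and was not tested as a site.

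Levels per kilobase spanned a wide range. In the Ctrl mice of day 14, SGCA was highest with 107 ± 11.8 RPKM (SD, n = 5), followed by DAG1 with 36.3 ± 15.4, SGCB with 32.8 ± 5.55, SSPN with 16.4 ± 2.62, SGCD with 7.92 ± 0.734, DMD with 5.80 ± 1.93, UTRN with 3.08 ± 0.813 and NOS1 with 2.50 ± 1.20. SGCA stayed above all others in every mouse of each group. DAG1 and SGCB overlapped in 5 of the 6 groups and differed without overlap only in the OVA mice of day 40, and DMD and SGCD overlapped wherever they were neighbours in the order. In the EAE mice of day 14 the mean of DMD stood above those of SGCD and SSPN, with values that overlapped with both.

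**Figure D1:**
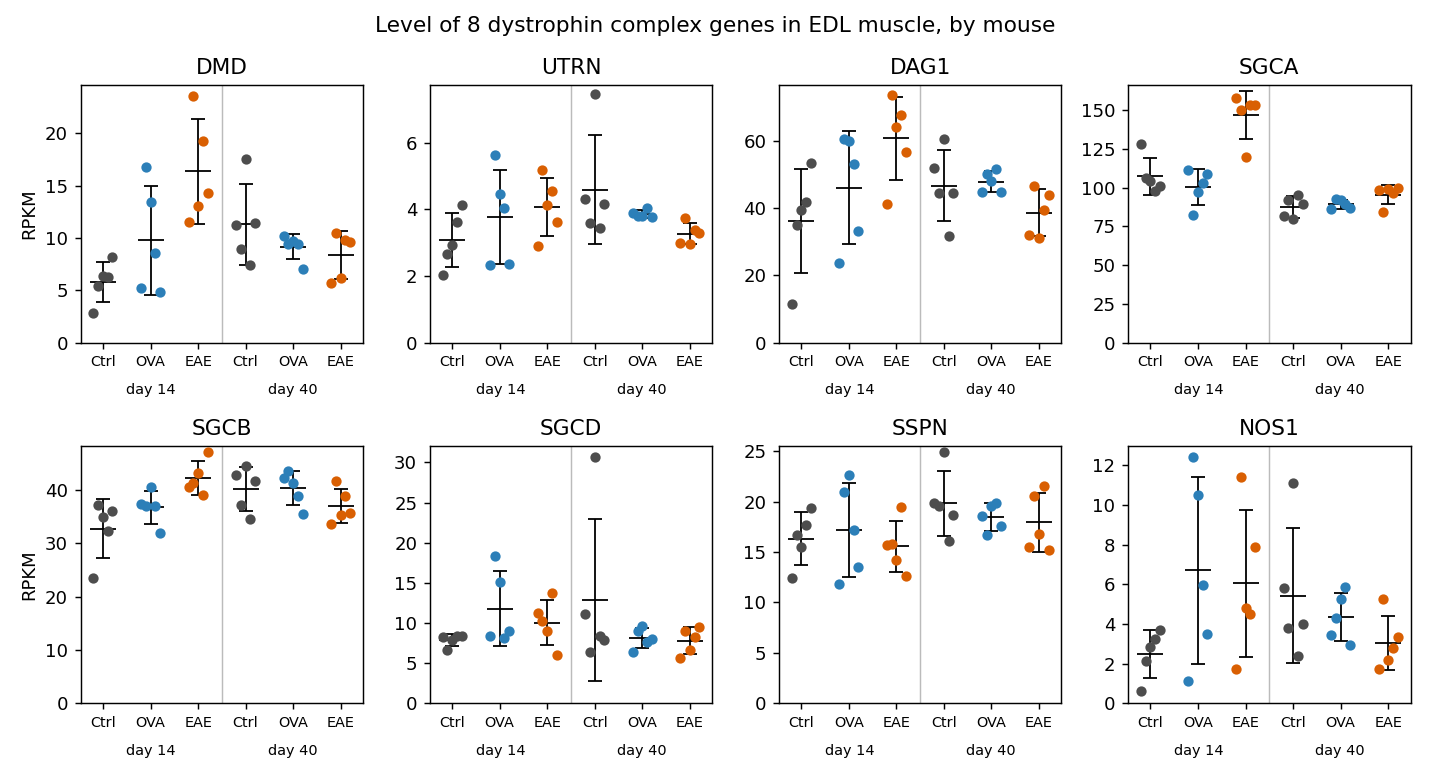
RPKM (linear axis from 0) of the 8 complex genes in each of the 30 mice, as points by group and day, with the mean and SD of the 5 mice as a dash and bars. DMD in the EAE mice of day 14 ran from 11.5 to 23.6 RPKM, above the 2.84 to 8.16 RPKM of the Ctrl mice, and SGCA from 120 to 158, while UTRN and SSPN overlapped between the groups of day 14.

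DMD rose at the peak of EAE and was the only one of the 8 genes called in every fit that left out 1 mouse of the EAE vs Ctrl comparison of day 14. It was 2.84, 5.39, 6.35, 6.24 and 8.16 RPKM in the Ctrl mice, 5.23, 16.8, 13.4, 8.56 and 4.81 in the OVA mice and 11.5, 23.6, 13.1, 19.3 and 14.3 in the EAE mice of day 14. All 5 EAE mice lay above all 5 Ctrl mice, whereas 2 OVA mice reached the range of the EAE mice and 2 lay within that of the Ctrl mice. The groups were tested by limma on log2(RPKM + 0.1) in a model of all 15 mice sampled that day, and a gene was called when its Benjamini-Hochberg adjusted p over all tested genes was below 0.05 and its fold change above 1.5. Testing required a group mean above 3 RPKM on either side of a comparison, which all 8 had in each one. EAE vs Ctrl, DMD was 2.84-fold higher (log2 fold change 1.51, SE 0.34, adjusted p = 0.00212). With 1 mouse left out at a time the log2 fold change ranged from 1.27 to 1.65 and was called in 10 of 10 fits. EAE vs OVA, it was 1.81-fold higher (log2 fold change 0.86, SE 0.34, adjusted p = 0.056), short of the threshold. That value passed when all 30 mice entered 1 model (adjusted p = 0.0188), and also without OVA mouse 2, OVA mouse 3 or EAE mouse 1 (1.09, 1.01 and 0.97 on the log2 scale). OVA vs Ctrl, the log2 fold change was 0.65 (SE 0.34, adjusted p = 0.569).

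In counts, 2 of the 8 genes, DMD and DAG1, were called higher in EAE vs Ctrl on day 14 and 0 lower, beside 14.6% of the 8771 tested genes called higher. The median log2 fold change of the 8 was 0.43, against 0.11 over all tested genes. Groups did not overlap, with the EAE mice higher, for DMD and SGCB, which compares with 21.2% of the tested genes. In EAE vs OVA 0 of the 8 were called by limma, 2 had an unadjusted p below 0.05 (SGCA and DMD), and 20.3% of 8674 genes were called in either direction. Groups did not overlap for 1 of the 8, SGCA, against 18.0% of genes with the EAE mice higher. In OVA vs Ctrl on day 14, 0 of the 8 were called, 1 had an unadjusted p below 0.05 (SGCD), and 0.142% of 8471 genes were called. These 3 comparisons share mice, and their values are given side by side only.

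UTRN, the paralog of DMD with a transcript of nearly the same length, did not pass the test at the peak of EAE. Its level was 2.04, 2.66, 2.93, 3.62 and 4.12 RPKM in the Ctrl mice, 2.34, 5.62, 4.45, 4.05 and 2.37 in the OVA mice and 2.90, 5.17, 4.13, 4.56 and 3.63 in the EAE mice of day 14, so all 3 groups overlapped. EAE vs Ctrl its log2 fold change was 0.41 (SE 0.25, adjusted p = 0.179), and EAE vs OVA 0.17 (SE 0.25, adjusted p = 0.611). Within each mouse, DMD exceeded UTRN by 0.85 ± 0.25 on the log2 scale (SD, n = 5) in the Ctrl mice, by 1.26 ± 0.28 in the OVA mice and by 1.95 ± 0.20 in the EAE mice of day 14. The lowest EAE mouse (1.64) lay above the highest Ctrl (1.09) and OVA (1.57) mice. This difference, chosen after the values were seen, was larger in EAE than in Ctrl mice by 1.10 and than in OVA mice by 0.69 (exact permutation test, two-sided, p = 0.00794 for each, the smallest that 5 against 5 mice can give, adjusted p = 0.0238 over the 6 comparisons made). OVA and Ctrl mice differed by 0.41 (exact permutation p = 0.0397, 0.0794 after adjustment). By day 40 the 3 groups stood at 1.28 ± 0.13 (Ctrl), 1.22 ± 0.20 (OVA) and 1.29 ± 0.30 (EAE), with adjusted exact permutation p-values from 0.781 to 0.968. These permutation tests were not repeated with the settings for transcript length described below, and whether the difference moved with that length was not tested.

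**Figure D2:**
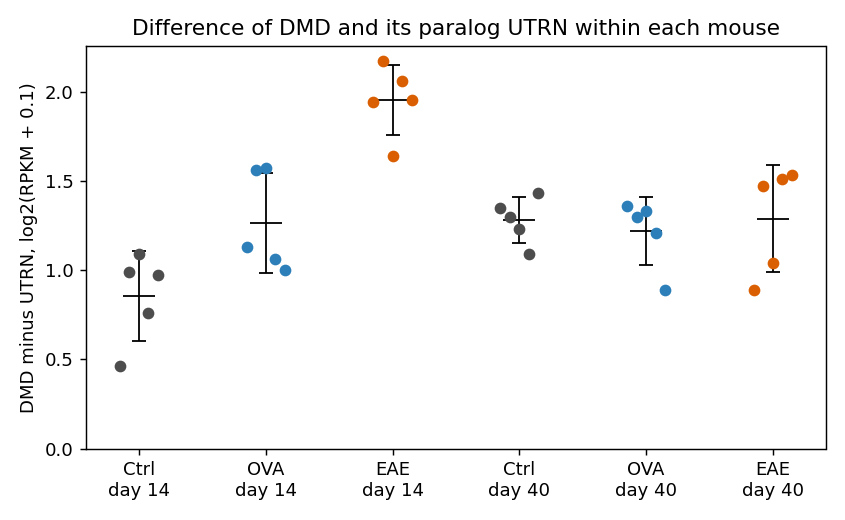
Difference of DMD and UTRN within each mouse, log2(RPKM + 0.1) of DMD minus that of UTRN (axis from 0), by group and day, with the mean and SD of 5 mice. The 5 EAE mice of day 14 ran from 1.64 to 2.17 and lay above every other mouse of that day.

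DAG1, which encodes both subunits of dystroglycan, was called in EAE vs Ctrl on day 14 by the narrowest margin. It was 11.5, 35.1, 39.5, 42.0 and 53.4 RPKM in the Ctrl mice, 23.7, 60.7, 60.1, 53.3 and 33.2 in the OVA mice and 41.4, 73.7, 64.4, 67.8 and 56.9 in the EAE mice. Ctrl mouse 1 stood far below the rest, and Ctrl mice 4 and 5 lay above the lowest EAE mouse. The change was 1.84-fold (log2 fold change 0.88, SE 0.35, adjusted p = 0.04997). Without Ctrl mouse 1 it was 0.51 (adjusted p = 0.122), and the call was also lost without Ctrl mouse 2 or 3 or EAE mouse 2, 3, 4 or 5 (0.80 to 0.95), which left it in 3 of 10 fits. EAE vs OVA gave 0.46 (SE 0.35, adjusted p = 0.313).

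Among the sarcoglycans, SGCA had the lowest adjusted p of the 8 genes against the OVA mice on day 14. The Ctrl mice of day 14 had 128, 106, 104, 97.9 and 101 RPKM of SGCA, the OVA mice 111, 82.2, 97.4, 103 and 109, and the EAE mice 158, 150, 120, 153 and 153. Only EAE mouse 3 fell within the range of the Ctrl mice, and the EAE mice did not overlap with the OVA mice. The change was 1.37-fold EAE vs Ctrl (log2 fold change 0.45, SE 0.11, adjusted p = 0.00434) and 1.46-fold EAE vs OVA (0.54, SE 0.11, adjusted p = 0.00147), so both had an adjusted p below 0.05 and stayed under the fold change of 1.5. Without EAE mouse 3 the second reached 0.62 and was called.

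SGCB and SGCD gave smaller or less even differences. SGCB was 23.4, 37.2, 34.9, 32.3 and 36.0 RPKM in the Ctrl mice, 37.3, 36.9, 40.6, 37.0 and 32.0 in the OVA mice and 40.5, 41.2, 43.2, 39.1 and 47.1 in the EAE mice of day 14. Ctrl and EAE mice did not overlap, with a log2 fold change of 0.38 (SE 0.12, adjusted p = 0.0160), under the fold threshold. SGCD was 8.32, 6.67, 7.88, 8.37 and 8.39 RPKM in the Ctrl mice, 8.40, 18.3, 15.1, 8.14 and 9.01 in the OVA mice and 11.2, 10.2, 9.05, 13.7 and 6.04 in the EAE mice. OVA mice 2 and 3 had the highest SGCD of that day. Its log2 fold change was 0.29 EAE vs Ctrl (SE 0.23, adjusted p = 0.306), -0.20 EAE vs OVA (SE 0.23, adjusted p = 0.516) and 0.49 OVA vs Ctrl (SE 0.23, adjusted p = 0.515).

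Sarcospan, a small membrane protein that binds the sarcoglycans, gave a different order. SSPN was 12.4, 16.7, 15.5, 17.7 and 19.4 RPKM in the Ctrl mice, 11.8, 21.0, 22.6, 17.2 and 13.5 in the OVA mice and 15.7, 15.8, 14.2, 19.5 and 12.6 in the EAE mice of day 14, all overlapping. Its log2 fold change was -0.07 EAE vs Ctrl (SE 0.18, adjusted p = 0.764) and -0.12 EAE vs OVA (SE 0.18, adjusted p = 0.624).

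NOS1 varied more within the groups of day 14 than any other member. It was 0.602, 2.13, 2.83, 3.22 and 3.70 RPKM in the Ctrl mice, 1.13, 12.4, 10.5, 5.99 and 3.49 in the OVA mice and 1.71, 11.4, 4.79, 4.50 and 7.87 in the EAE mice of day 14. OVA and EAE mice thus covered nearly the same range. The log2 fold change was 1.20 EAE vs Ctrl (SE 0.62, adjusted p = 0.118), 1.19 OVA vs Ctrl (SE 0.62, adjusted p = 0.569) and 0.02 EAE vs OVA (SE 0.62, adjusted p = 0.988). Without EAE mouse 1 the first reached 1.58 and was called.

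**Figure D3:**
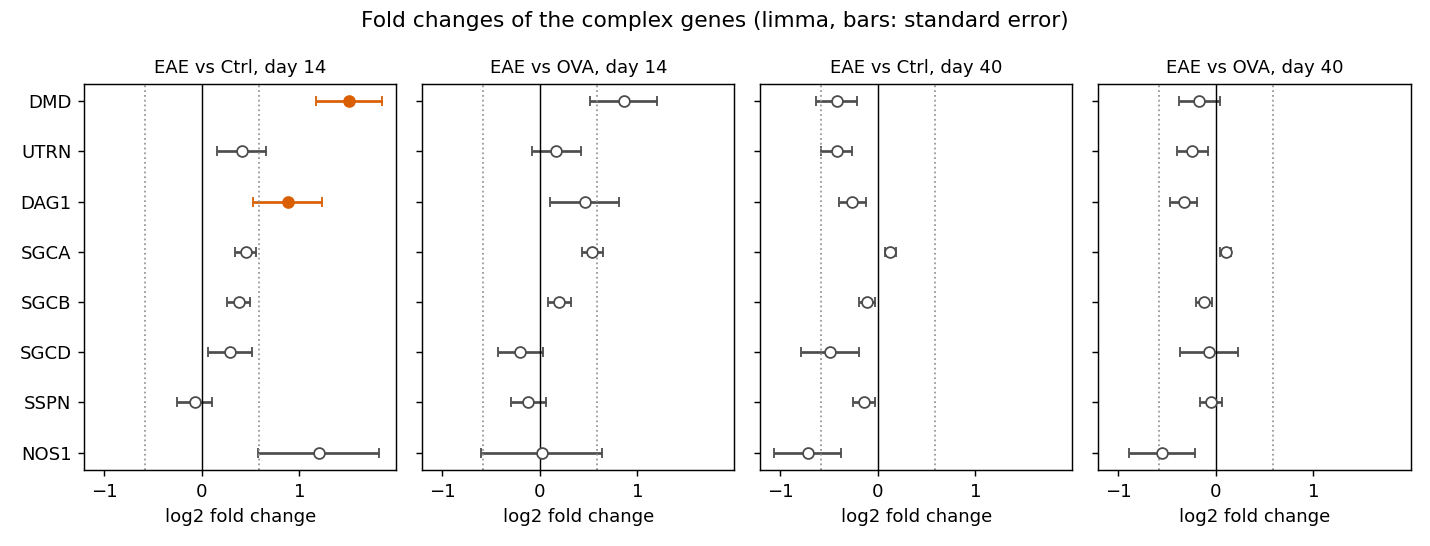
Log2 fold change with its standard error (limma) of the 8 genes in 4 comparisons, filled where called, with dotted lines at a fold change of 1.5. DMD and DAG1 are filled in EAE vs Ctrl on day 14, no gene is filled elsewhere, and the points of day 40 lie near or below 0 except SGCA.

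In the remission of day 40 no member was called between groups. DMD was 11.2, 8.97, 17.6, 7.44 and 11.4 RPKM in the Ctrl mice, 10.2, 9.47, 9.71, 9.46 and 7.06 in the OVA mice and 5.65, 10.5, 6.18, 9.84 and 9.65 in the EAE mice. Its groups overlapped, and Ctrl mouse 3 was the highest of that day. In EAE vs Ctrl, 7 of the 8 log2 fold changes were below 0, among them NOS1 at -0.72, SGCD at -0.49, DMD at -0.42, UTRN at -0.42, DAG1 at -0.26, SSPN at -0.14 and SGCB at -0.11, and SGCA was at 0.13. Adjusted p-values (limma) ran from 0.11 to 0.405. Only UTRN had an unadjusted p below 0.05, and 0.460% of 8691 genes were called. NOS1 was called at -0.95 without Ctrl mouse 4. In EAE vs OVA 0 of the 8 were called, 1 had an unadjusted p below 0.05 (DAG1), the lowest adjusted p was 0.253, and 0.209% of 8598 genes were called. Groups did not overlap there for 1 of the 8, UTRN, which ran from 2.95 to 3.73 RPKM in the EAE and from 3.78 to 4.03 in the OVA mice, against 4.90% of genes with the EAE mice lower. In OVA vs Ctrl 0 of the 8 and 0% of 8706 genes were called, 0 of the 8 had an unadjusted p below 0.05, and 272 of all genes did.

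Of the other members on day 40, DAG1 averaged 46.8 ± 10.6 RPKM (SD, n = 5) in Ctrl, 47.9 ± 3.07 in OVA and 38.7 ± 6.99 in EAE mice. SGCA averaged 87.5 ± 6.89, 89.2 ± 2.78 and 95.5 ± 6.26 RPKM in the same order, all below the EAE mean of 147 ± 15.3 on day 14. NOS1 averaged 5.41 ± 3.39, 4.35 ± 1.22 and 3.05 ± 1.37 RPKM, with overlap between the groups. SGCD was 30.7 RPKM in Ctrl mouse 3 and 5.61 to 11.1 in the other 14 mice of day 40.

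The EAE vs Ctrl difference of DMD changed between the days. In a model of all 30 mice this change was -1.92 on the log2 scale for DMD (SE 0.42, adjusted p = 0.000674), -1.92 for NOS1 (SE 0.75, adjusted p = 0.0365), -1.14 for DAG1 (SE 0.40, adjusted p = 0.0208) and -0.83 for UTRN (SE 0.30, adjusted p = 0.0248). These 4 of 8 were called lower, beside 20.9% of 9049 genes. DMD and DAG1 were called in 20 of 20 fits with 1 mouse left out, UTRN in 17 and NOS1 in 13. UTRN lost the call without Ctrl mouse 1 or EAE mouse 2 of day 14 or Ctrl mouse 3 of day 40 (-0.74 to -0.65). NOS1 lost it without any 1 of these 3, EAE mouse 5 of day 14, Ctrl mouse 1 of day 40 or EAE mouse 1 or 3 of day 40 (-1.85 to -1.50), and with no filter on low values (adjusted p = 0.0622). SGCB (-0.50, adjusted p = 0.00634) and SGCA (-0.32, adjusted p = 0.0335) stayed under the fold threshold. In the change of EAE vs OVA 0 of 8 were called, 3 had an unadjusted p below 0.05, DMD stood at -1.02 (adjusted p = 0.0599) and SGCA at -0.45 (adjusted p = 0.0066), and 21.7% of genes were called in either direction. DMD was called there without OVA mouse 2 or 3 or EAE mouse 1 of day 14, or EAE mouse 2 of day 40 (-1.26 to -1.11).

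Both sides of that change moved for DMD. Among the EAE mice it fell by 0.95 on the log2 scale from day 14 to day 40 (SE 0.30, adjusted p = 0.00993), and SGCA fell by 0.61 (SE 0.09, adjusted p = 2.13e-06), 2 of 8 genes beside 12.2% of genes called lower. SGCA was at -0.57, just under the fold threshold, without EAE mouse 2 of day 40, and at -0.58 with median-of-ratios scaling and -0.48 with quantile normalization, neither called. DAG1, at -0.65 (SE 0.28, adjusted p = 0.0623), was called without EAE mouse 1 of day 14 (-0.78) or with only the 10 EAE mice in the model (adjusted p = 0.00666). Among the Ctrl mice DMD was higher on day 40 than on day 14 by 0.97 (SE 0.30, adjusted p = 0.0191), 1 of 8 genes beside 5.06% of genes called higher. This call was lost without Ctrl mouse 1 of day 14 (0.74) or Ctrl mouse 3 of day 40 (0.80). UTRN gave 0.54 among the Ctrl mice (adjusted p = 0.0538) and was called when Ctrl mouse 4 or 5 of day 14, or Ctrl mouse 2 or 4 of day 40, was left out (0.61 to 0.65). In the OVA mice 0 of 8 were called between days, 0 had an unadjusted p below 0.05, and 3.92% of genes were called.

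The levels of the long members moved together from mouse to mouse, also within groups. Each mouse was given a long-transcript index, the median deviation from the mean over all mice of 508 genes with exons above 8000 bases minus that of 2362 genes below 2000 bases, on the log2 scale and without the 8 members. It ran from -0.96 to 0.12 in the Ctrl mice of day 14 (median -0.31), from -0.81 to 0.41 in OVA (0.01) and from -0.43 to 0.57 in EAE (0.22), and on day 40 from -0.14 to 0.86 in Ctrl (0.24), from 0 to 0.23 in OVA (0.15) and from -0.34 to 0.15 in EAE (0.04). In 6 of 6 groups the mouse with the lowest index had the lowest NOS1, and the mouse with the highest index had the highest NOS1, DAG1 and UTRN. For DMD this held in 5 of 6 groups at each end. For SGCA, the shortest transcript of the 8, it held in 0 of 6 groups at either end, and its lowest value of all 30 mice stood in Ctrl mouse 3 of day 40, the mouse with the highest index. Ctrl mouse 1 of day 14 had the lowest index and the lowest DMD, UTRN, DAG1, SGCB and NOS1 of all 30 mice, and Ctrl mouse 3 of day 40 the highest index and the highest UTRN, SGCD and SSPN.

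**Figure D4:**
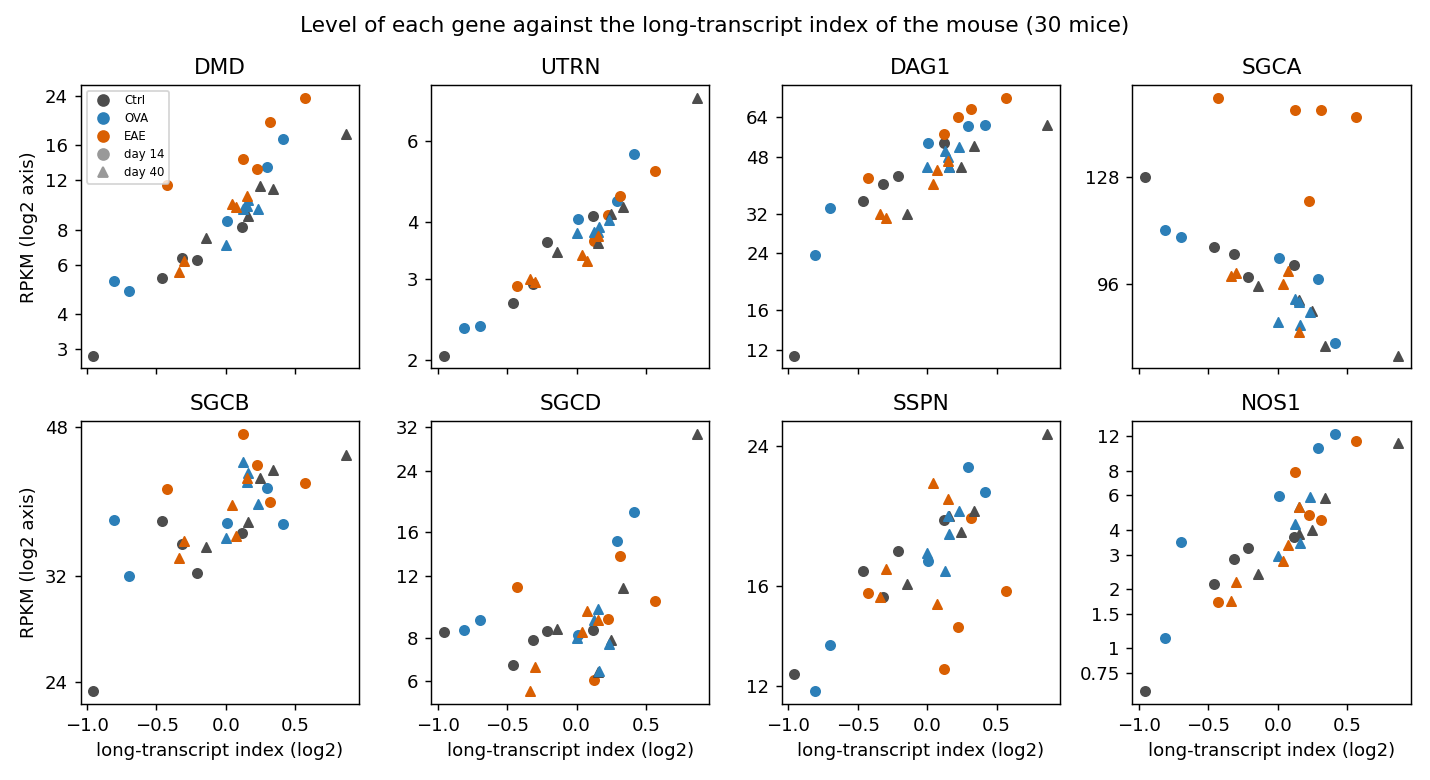
RPKM (log2 axis) of each gene against the long-transcript index of the mouse (log2), 1 point per mouse, coloured by group, with circles for day 14 and triangles for day 40. UTRN, NOS1, DAG1 and DMD climb with the index from -0.96 to 0.86, SGCA declines outside the EAE mice of day 14, and most EAE mice of day 14 lie above the other mice of a like index for DMD and SGCA.

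Because the index differed between the groups, the comparisons were repeated after a correction for transcript length within each mouse and with the index as a covariate, both chosen after the data were seen. DMD in EAE vs Ctrl on day 14 was 0.98 (SE 0.19, adjusted p = 0.000502) with the correction and 0.83 (SE 0.13, adjusted p = 0.000157) with the covariate, and was called in both. UTRN went to -0.10 and -0.08, NOS1 to 0.78 and -0.01, and DAG1 to 0.61 and 0.22, none of them called. SGCA was 0.52 and 0.58 EAE vs Ctrl, and 0.55 and 0.62 EAE vs OVA, the last of these called (adjusted p = 3.05e-05). DMD in EAE vs OVA was 0.48 (adjusted p = 0.0462) and 0.44 (adjusted p = 0.00739), both under the fold threshold. NOS1 in EAE vs OVA was -0.72 with the covariate (adjusted p = 0.0289) and was called lower there. Between the days, the change of EAE vs Ctrl was called only for DMD under either setting (-1.11 and -0.75), the DMD difference among Ctrl mice was no longer called (0.49 and 0.10), and among the EAE mice the fall of DMD (-0.62 and -0.64) and of SGCA (-0.61 and -0.67) was called in both. The paper states that the RNA of all samples lay above its minimum score of integrity, without scores of single mice. RNA integrity of single mice was not analysed here, and what set the index was not tested.

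**Figure D5:**
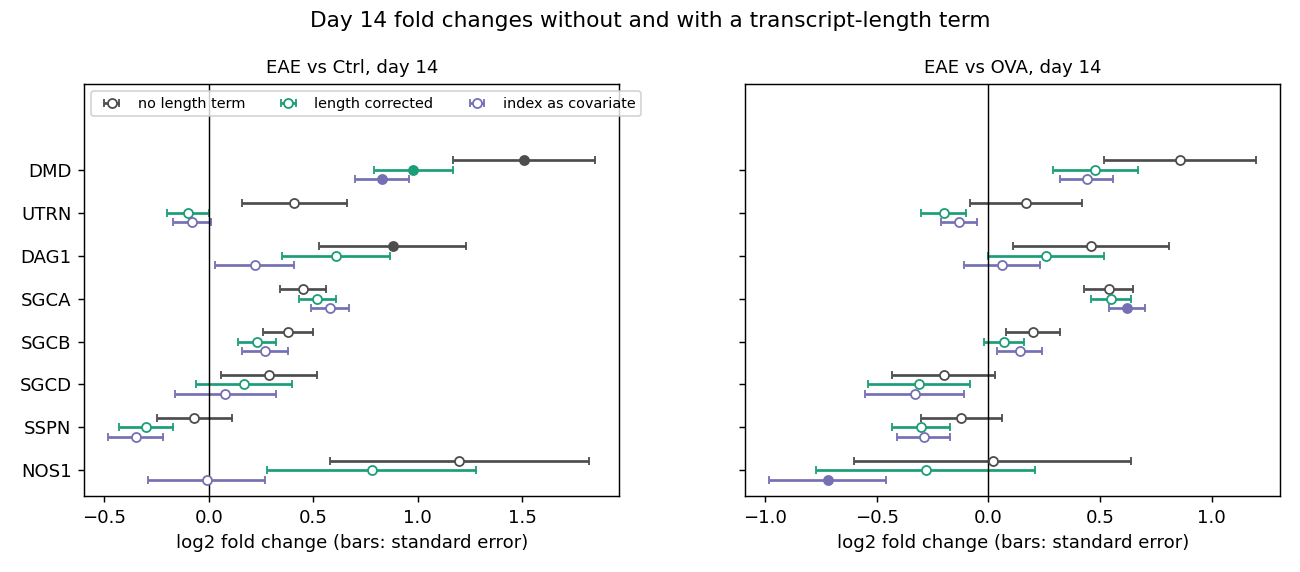
Log2 fold change with its standard error (limma) of the 8 genes on day 14 without a length term, with the correction for transcript length and with the index as a covariate, filled where called. DMD in EAE vs Ctrl is filled under all 3 (1.51, 0.98 and 0.83), UTRN moves to -0.10 and -0.08, and SGCA stays between 0.45 and 0.62 in both comparisons.

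Further genes of the complex gave differences in both directions on day 14. DTNA, which encodes dystrobrevin alpha, a dystrophin-related scaffold, was called higher in EAE vs Ctrl (12.2 ± 1.64 RPKM in Ctrl, 13.9 ± 2.56 in OVA and 20.5 ± 2.25 in EAE mice, SD, n = 5, log2 fold change 0.75, SE 0.14, adjusted p = 0.000462). EAE vs OVA it stood at 0.57 (adjusted p = 0.00401), under the fold threshold. SGCE, a sarcoglycan also made outside muscle, was lower with 7.83 ± 0.588 RPKM in Ctrl and 5.99 ± 0.556 in EAE mice (-0.38, adjusted p = 0.00708), under the fold threshold. CAV3, the muscle caveolin, gave -0.19 (adjusted p = 0.492). SNTB1, SNTB2, DTNB, SNTG2, SNTG1 and SGCZ stayed below 3 RPKM in each group, with SNTG1 near 0 and SGCZ at 0. On day 40 none of DTNA, SGCE and CAV3 was called between groups. DTNA fell among the EAE mice by 0.66 from day 14 to day 40 (adjusted p = 5.9e-05), and CAV3 fell among the Ctrl mice by 0.69 (adjusted p = 0.00888).

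Around the complex, genes of the integrin linkage and the neuromuscular junction were called in EAE vs Ctrl on day 14. Of 11 genes listed for the integrin linkage, the other membrane anchor of the fibre, 5 were called higher and 0 lower (median log2 fold change 0.44). They were VCL, encoding vinculin (0.73), DES, encoding the intermediate filament desmin (0.72), FERMT2 (0.67), ITGA7 (0.65), the laminin-binding integrin of muscle, and ITGB1 (0.62). Against the OVA mice 3 of these 11 were called higher. DES, an intermediate filament gene, also stands in the list of smooth muscle and pericyte markers, so its call is counted in both lists. Of 10 tested genes of the neuromuscular junction, where utrophin lies, 6 were called higher and 2 lower. In OVA vs Ctrl 7 were tested, since MUSK and the receptor subunits CHRNG and CHRND passed the filter of 3 RPKM only through the EAE mice. Genes that enter in this way can hardly be called lower, so the count is a description only. MUSK, the kinase that organizes the junction, rose from 0.708 ± 0.396 to 9.02 ± 6.02 RPKM (3.43, adjusted p = 2.08e-05), and the receptor subunits CHRNG (3.01) and CHRNA1 (2.93) rose beside it. ACHE, the esterase of the junction (-1.53), and COLQ, its collagen tail (-1.12), fell. The 8 called genes of the junction were called in the same direction against the OVA mice.

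The extracellular side gave mixed directions. Of 9 laminin and other ligand genes, 1 was called higher, LAMA5 (0.83), and 3 lower, LAMB1 (-0.80), AGRN (-0.66) and BGN (-0.63), with a median of -0.44. LAMA5 passed the filter of 3 RPKM only through the EAE mice. LAMA2, the laminin chain of the fibre's basement membrane, stood at 6.73 ± 1.66 RPKM in Ctrl and 7.87 ± 1.81 in EAE mice. Of 14 tested genes that build the sugar chains of dystroglycan, 1 was called, B3GALNT2 (0.80), with a median of 0.21. Of 8 tested genes of membrane repair, DYSF, encoding dysferlin, was called higher (19.3 ± 3.00 to 48.4 ± 8.61 RPKM, 1.32), and ANXA2 (-1.15), ANXA5 (-0.83) and ANXA1 (-0.59) lower. These are RNA levels, and neither the amount nor the function of dysferlin protein was measured. Of all tested genes 14.6% were called higher and 11.8% lower in EAE vs Ctrl, and 11.0% higher and 9.28% lower in EAE vs OVA, and nothing is called particular to these lists.

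The profile of DMD over the 6 group means, each relative to the Ctrl mice of day 14, was most like those of USP9X, MOB1B and RPS6KA5. The root mean square difference, taken over the groups other than the Ctrl mice of day 14, was 0.0864, 0.0943 and 0.102 on the log2 scale. That of DAG1 was most like TLCD4 (0.0189), ANKRD13C (0.0554) and ATP6V0A2 (0.0581). The exons of these 6 genes cover between 3903 and 11887 bases.

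Markers of other cells changed on the same day. In EAE vs Ctrl, 9 of 10 fibroblast markers were called lower and 0 higher, and their summed level ran from 790 to 1150 RPKM in EAE against 1990 to 2930 in Ctrl and 1380 to 1930 in OVA mice. Of 12 endothelial markers 4 were called lower (CLDN5, EGFL7, EMCN and KDR), with sums of 145 to 193 RPKM in EAE and 171 to 231 in Ctrl mice. Of 8 macrophage markers 3 were called lower (ADGRE1, CSF1R and LYZ2), of 7 slow fibre markers 3 (TNNC1, MYL2 and MYL3), of 5 tested adipocyte markers 1 (CFD) and of 6 tested Schwann cell markers 0. Of 8 tested smooth muscle and pericyte markers 1 was called higher, DES, which muscle fibres also express. The 9 markers of the muscle fibre itself summed to 52300 to 66100 RPKM in EAE and 72500 to 96900 in Ctrl mice, with 1 called, PVALB, lower. MYOD1, the only 1 of 4 satellite cell markers above the filter, was called higher (1.90). Of the satellite cell markers CALCR was at or near 0. Counts of markers called lower stand beside 11.8% of all tested genes called lower. The part of these markers in the levels of the complex genes was not tested.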

How the data were processed

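Poly(A) RNA of EDL muscle was sequenced in paired-end reads from 30 mice, 5 in each of 6 groups taken from the sample labels; 1 sample is 1 mouse. The authors used Subread for alignment to mm10 and featureCounts with RefSeq transcripts for counting, and derived RPKM from this. What the authors deposited is 1 table of log2 values: in a set of 267 little-read genes (2188 values), 100% were whole reads (within 0.1 read) when taken as log2(RPKM + 1), against 10.3% as RPKM and 26.8% as natural logarithms. The value 0.0001 stood in place of 0 in 25.8% of cells. Values were converted back to RPKM. Reads per mouse were estimated from single-read steps and exon lengths of the reference annotation (GENCODE, GRCm38), which gave a length for 95.1% of genes. Intervals of counting error are not given. Averaged over genes, mice of 1 group differed by more than sampling of reads alone would give, but this was not worked out for single members.

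Genes whose mean was above 3 RPKM in 1 or more of the groups compared were tested with limma 3.58.1 in R 4.3.3 (lmFit and eBayes with a trend) on log2(RPKM + 0.1), where fold changes of low genes are understated. Comparisons within a day used its 15 mice, and those between days all 30. Calls needed a p below 0.05 after Benjamini-Hochberg adjustment together with a fold change above 1.5, the thresholds of the study's methods, which applied them to read counts with another tool; counts were not used here. The script was tested on simulated data. The genes named are every member, the further genes of the complex (some of which are not reported here), in each other list up to 3 called genes with the largest and the smallest log2 fold change in EAE vs Ctrl on day 14, the 3 genes most like each member called in EAE vs Ctrl or EAE vs OVA on day 14, and the called markers where 5 or fewer of a list were called; LAMA2 was named after its values were seen. Members and lists were chosen with earlier results of these data known. Alternatives were other pseudocounts, filters, scalings, sample sets, no trend, no fold threshold, a replicate block and leaving out each mouse; the 2 length settings (lowess of deviations on log2 exon length, span 0.3, and the index as a covariate) and the DMD minus UTRN difference (exact permutation test) were added after the data were seen. No batch is given in the labels.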

Additional observations from a re-analysis of the deposited data

Results flagged for a closer look

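In 6 of 48 tests, 8 genes in 6 groups of 5, 1 mouse stood apart from the other 4 by a gap above the critical share of the group's range on the log2 scale; chance gives about 1 in 20. DAG1 in Ctrl mouse 1 of day 14 was 11.5 RPKM against 35.1 to 53.4 in the others (gap 0.726 of the range), and the index of that mouse was -0.96. UTRN in Ctrl mouse 3 of day 40 was 7.46 RPKM against 3.44 to 4.30 (0.713), with an index of 0.86. DMD in OVA mouse 5 of day 40 was 7.06 RPKM against 9.46 to 10.2 (0.798). SGCA was 120 RPKM in EAE mouse 3 of day 14 against 150 to 158 (0.818), and 84.5 in EAE mouse 2 of day 40 against 96.2 to 99.6 (0.789). SGCD in Ctrl mouse 2 of day 14 was 6.67 RPKM against 7.88 to 8.39 (0.728).

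The EAE vs Ctrl difference changed from day 14 to day 40 by the test of the difference itself for DMD (-1.92), NOS1 (-1.92), DAG1 (-1.14) and UTRN (-0.83, all on the log2 scale). With either length setting only that of DMD was called.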

How the results depend on the processing

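Members called in EAE vs Ctrl on day 14 went from 2 to 1 with pseudocount 0.01, no filter, a filter at 1 RPKM, quantile normalization, no trend, the length correction or the index as a covariate, in each case by the loss of DAG1, and to 4 with no fold threshold. EAE vs OVA on day 14 went from 0 to 1 with all 30 mice in 1 model or no fold threshold and to 2 with the covariate, and the Ctrl mice between days from 1 to 3 with no fold threshold and to 0 with either length setting. The OVA mice between days went from 0 to 1 with the covariate (NOS1), the EAE mice from 2 to 1 with median-of-ratios or quantile scaling, the change of EAE vs Ctrl from 4 to 1 with either length setting, to 3 with no filter (loss of NOS1) and to 6 with no fold threshold, and the change of EAE vs OVA from 0 to 1 with no fold threshold. With 1 mouse left out, calls ranged from 1 to 3, 0 to 1 and 0 to 0 (EAE vs Ctrl, EAE against OVA, and OVA vs Ctrl, day 14), 0 to 1, 0 to 0 and 0 to 0 (the same, day 40), 0 to 2, 0 to 0 and 1 to 3 (Ctrl, OVA and EAE between days), and 2 to 5 and 0 to 1 (change of EAE vs Ctrl and vs OVA).

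Signs turned as follows, and most values ended near 0. Some had stood far from 0 without a length term. NOS1 in EAE vs Ctrl was at 1.20 on day 14 and -0.72 on day 40, neither called. The change of EAE vs Ctrl was at -1.92 for NOS1 and -0.83 for UTRN, both called. With the covariate, EAE vs Ctrl on day 40 went to 0.10 for DMD, 0.08 for DAG1, 0.03 for SGCB, 0.18 for SGCD, 0.12 for NOS1 and 0.08 for SSPN (0.01 with the length correction). On day 14 UTRN went to -0.10 (correction) and -0.08 (covariate) against Ctrl and to -0.20 and -0.13 against OVA, and NOS1 to -0.01 against Ctrl (covariate). NOS1 against OVA, at 0.02, went to -0.02 (pseudocount 1 and median-of-ratios), -0.10 (quantile), -0.28 (correction) and -0.72 (covariate), and without 1 mouse ranged from -0.50 to 0.39; SSPN against Ctrl ranged from -0.16 to 0. With the covariate UTRN went to -0.07 among Ctrl mice between days, and the change of EAE vs Ctrl to 0.14 for NOS1 and 0 for UTRN. The cause was not tested.

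Mice of different groups share numbers in the labels but no stated litter or day, and in none of the 6 pairs of groups was the correlation of deviations above 0.1 for every same-numbered pair (mean -0.202 to 0.281); in EAE vs OVA on day 14 it was above 0 in all of them (0.0202 to 0.686). With the number as a replicate block, 1 member was called in EAE vs OVA on day 14 (DMD), 1 in the change of EAE vs OVA (DMD), 3 in EAE vs Ctrl on day 14 (NOS1 added) and 3 among EAE mice between days (DAG1 added), and the other 7 counts were those without it.

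The SE of NOS1 was 0.62 on day 14 and 0.34 on day 40, and the fewest reads estimated behind a value were 140.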
